A study of Mus musculus with 4 samples.

Results

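A set of 9 interferon-stimulated genes was followed in the cortex of APPswe/PS1ΔE9 mice, and its members were taken from the table by name, whatever their values. The listed genes were Ifit1, Ifit3, Ifitm3, Oasl2, Irf7, Bst2, Isg15, Usp18 and Ifi27l2a. Rows whose deposited symbol equals one of these names, with upper and lower case treated alike, were found for 7 of the 9 genes, among 22919 features in all. Only 3 of them, Ifit3, Oasl2 and Ifi27l2a, were spelled with the usual case. Usp18 and Isg15 have no row under their own symbols. Their transcripts were identified by Ensembl number under the deposited symbols LOC100048346 and Gm9706, and their values are given separately. The 2 groups were 2 male APP/PS1 transgenic mice (APP) and 2 male wild-type mice (WT), both on a C57BL/6 background and 12 months old, with 1 cortex library from each mouse. The APP/PS1 line carries a mutant APPswe and a mutant PS1ΔE9 transgene, and it was compared with mice that carry neither. In this widely used line the mouse prion protein promoter drives both transgenes, so mutant APP is made well above the normal level and in many brain cells. The columns name the libraries WT-1, WT-2, APP-3 and APP-4, and the APP numbers do not match the numbering of the labels, so these 2 libraries are known by group only.

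Interferons are secreted signalling proteins released when a cell senses viral or misplaced nucleic acid. Type I interferon binds the receptor pair Ifnar1 and Ifnar2, the kinases Jak1 and Tyk2 are activated, and a complex that contains Stat2 and Irf9 enters the nucleus. There it binds the interferon-stimulated response element (ISRE) in the promoters of interferon-stimulated genes. The products block viral translation and entry, tether virus particles at the cell surface, modify proteins and feed back on the signal. In the brain, microglia and astrocytes are among the cells that make and answer interferon.

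The promoters of several of these genes carry the ISRE core before the start, and they are shown for that reason. RefSeq (GRCm38.p6) gave a window around the start for 7 of the 9 genes, all but Usp18 and Ifi27l2a. The core searched on either strand was GAAA, any 2 bases and GAAA, which reads TTTC, any 2 bases and TTTC on the other strand. It was found in 5 of the 7 windows, or 71.4%, and in 1131 of 32851 windows of the same length over all RefSeq promoters, or 3.44%. The 160 bases before the start of Ifit1 (chr19:34640729-34640888, + strand), Ifit3 (chr19:34583369-34583528, + strand), Bst2 (chr8:71537473-71537632, − strand), Isg15 (chr4:156200819-156200978, − strand) and Oasl2 (chr5:114896774-114896933, + strand) are printed 5′ to 3′ on the gene's strand, with every base of a matched core in capitals.
Ifit1: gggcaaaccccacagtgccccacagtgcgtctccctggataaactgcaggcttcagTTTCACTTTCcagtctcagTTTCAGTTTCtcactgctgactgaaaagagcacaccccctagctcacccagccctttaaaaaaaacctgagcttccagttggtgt
Ifit3: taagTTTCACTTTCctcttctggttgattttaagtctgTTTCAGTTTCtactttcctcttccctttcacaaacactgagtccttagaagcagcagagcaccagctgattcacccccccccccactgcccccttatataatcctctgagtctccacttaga
Bst2: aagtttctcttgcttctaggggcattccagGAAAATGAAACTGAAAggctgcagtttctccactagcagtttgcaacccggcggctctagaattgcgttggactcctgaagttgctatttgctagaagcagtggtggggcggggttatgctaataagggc
Isg15: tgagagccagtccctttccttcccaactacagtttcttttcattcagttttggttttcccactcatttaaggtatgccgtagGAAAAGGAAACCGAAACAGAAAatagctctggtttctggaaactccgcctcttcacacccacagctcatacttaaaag
Oasl2: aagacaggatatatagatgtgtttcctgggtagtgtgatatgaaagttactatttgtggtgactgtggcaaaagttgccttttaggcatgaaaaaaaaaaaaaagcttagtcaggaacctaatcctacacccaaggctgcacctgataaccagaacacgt

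Ifit1 and Ifit3 hold the same pair of matched cores, TTTCACTTTC and TTTCAGTTTC, at different distances from the start. In Ifit1 they begin at positions -104 and -85, and in Ifit3 at positions -156 and -122, where -1 is the last base before the start. The capitals in Bst2 are 2 overlapping matches and those in Isg15 are 3. Ifitm3 has 2 matches just after its start, which are not printed. Oasl2 and Irf7 have no match to these letters in this window. The GAS core (TTC, any 3 bases and GAA), the usual element of the interferon gamma response, was found in Bst2, where it overlaps the first ISRE match, and in Ifitm3. In all promoters 8.3% of windows hold it. Of the 73 windows found for a longer list of interferon-stimulated genes, described later, 32 hold the ISRE core, or 43.8%. A match is a description of letters and not a bound site.

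**Figure D1:**
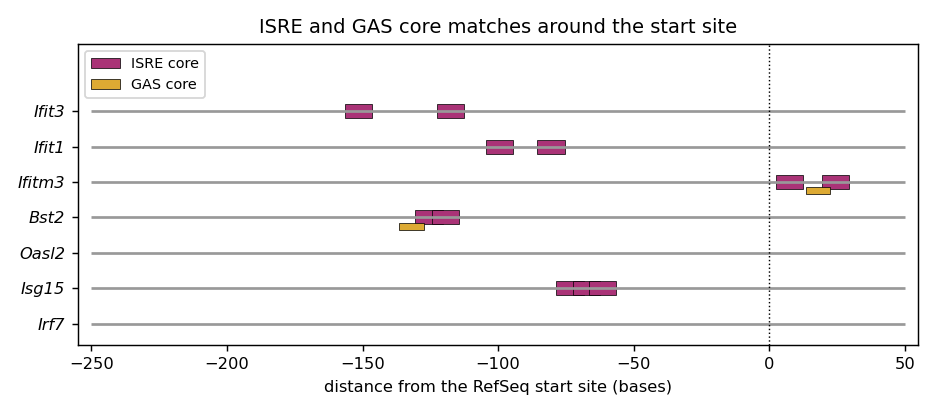
Positions of matches to the ISRE core and the GAS core in the RefSeq promoter windows of 7 genes, with the distance from the annotated start in bases on the x axis and 1 line per gene. Ifit1, Ifit3, Bst2 and Isg15 carry ISRE matches before the start, Ifitm3 carries them after it, and Oasl2 and Irf7 carry none.

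The libraries held between 28525117 and 43881196 counts, and both APP libraries were shallower than both WT libraries. As a check of the labels, App and Prnp rose in APP, by 1.53 (adjusted p = 1.89e-06) and 1.72 (adjusted p = 9.01e-07) on the log2 scale. Cortical neuron markers summed to between 3380 and 3800 CPM, the read count scaled by library size, in each library, the tissue that the labels name. CPM values here use library sizes scaled by TMM, edgeR's correction for library composition. Between replicates, counts scattered by 23.4 times the sampling noise in APP and 4.44 times in WT (chi-square per degree of freedom over all features), so the 2 APP libraries differed more. In all, 229 features met both thresholds of the study, at least 1.5-fold and an FDR under 0.05 (quasi-likelihood test of edgeR, adjusted by Benjamini-Hochberg over 22919 features), which is 0.999% of them, and 211 of these, or 0.921% of all features, were higher in APP.

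In the cortex of APP mice, 2 of the 7 genes found by symbol passed both cut-offs and both were higher, Oasl2 by a log2 fold change of 2.03 and Ifit3 by 0.75. Each of the 7 genes was higher in both APP libraries than in both WT libraries, as were 21.1% of all features. An unadjusted p under 0.05 in the same direction was found for 7 of 7, against 7.03% of all features. Their median log2 fold change was 1.13, while that of all features was 0.004 with quartiles of -0.12 and 0.17. Summed over the 7 genes, the level was 8.29 CPM in WT-1, 7.75 in WT-2, 15.6 in APP-3 and 17.5 in APP-4. With Usp18 and Isg15 included, 8 of 9 genes were higher in both APP libraries and 2 passed the cut-offs. The libraries are whole cortex, in which more cells of a type and more RNA per cell cannot be told apart. A two-sided exact permutation test of a single gene between 2 and 2 mice has 0.333 as its smallest p, and the adjusted p-values depend on the spread that edgeR pools over features.

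**Figure D2:**
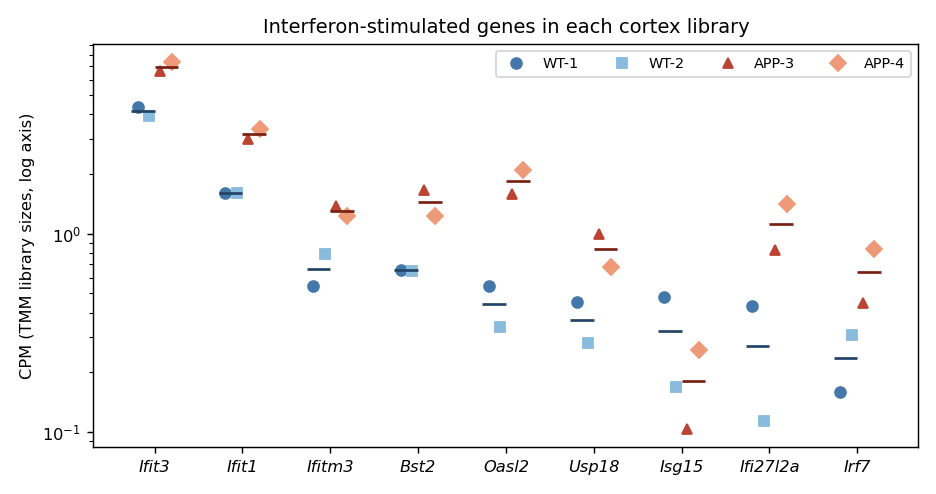
Level of each of the 9 listed genes in each library, in CPM with TMM library sizes on a log axis, where points are single libraries and bars are the mean of the 2 libraries of a group. The APP points lie above the WT points for every gene shown but Isg15, and the genes with the highest levels are Ifit3 and Ifit1.

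Ifit1 and Ifit3 belong to a family of tetratricopeptide proteins that bind viral RNA and hold back its translation, and both lie on chromosome 19. Ifit3 (ENSMUSG00000074896, GRCm38 chr19:34583531-34588731, + strand) was counted on a transcript of 1745 nt in 2 exons. It had 191 counts in WT-1, 140 in WT-2, 192 in APP-3 and 227 in APP-4. The levels were 4.34 and 3.95 CPM in WT and 6.64 and 7.33 CPM in APP, so the groups did not overlap and the replicates lay within counting error of each other. The mean was 4.14 ± 0.278 CPM in WT and 6.98 ± 0.489 CPM in APP (SD, n = 2 each). Ifit3 rose by a log2 fold change of 0.75 (approximate SE 0.15, 95% interval 0.43 to 1.07, adjusted p = 0.0355). Its call was lost with DESeq2 (adjusted p = 0.0571), with at least 10 counts required in every library (0.0587), with sums by Ensembl identifier (0.0534), without WT-1 (0.297) and without WT-2 (0.404).

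Ifit1 (ENSMUSG00000034459, chr19:34640871-34650009, + strand) had 71 counts in WT-1, 57 in WT-2, 87 in APP-3 and 105 in APP-4. In CPM both WT libraries stood at 1.61, and the APP libraries stood at 3.01 and 3.39. The 2 WT libraries were nearly equal and both APP libraries lay well above them. The mean was 1.61 ± 0.00461 CPM in WT and 3.2 ± 0.271 CPM in APP (SD, n = 2 each). The log2 fold change was 0.99 (approximate SE 0.21, 95% interval 0.53 to 1.45), with an adjusted p of 0.0512, just outside the cut-off. It passed in 5 of 10 other ways of testing all 4 libraries, whose adjusted p ran from 0.00268 to 0.135.

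Oasl2, a member of the 2′-5′-oligoadenylate synthetase-like family of antiviral proteins, rose the most of the called genes. Oasl2 (ENSMUSG00000029561, chr5:114896936-114912234, + strand) was counted on a transcript of 3123 nt in 6 exons. It had 24 counts in WT-1, 12 in WT-2, 46 in APP-3 and 65 in APP-4. The corresponding levels were 0.545, 0.338, 1.59 and 2.1 CPM, and the lower APP library was above the higher WT library. The mean was 0.442 ± 0.146 CPM in WT and 1.84 ± 0.36 CPM in APP (SD, n = 2 each). Oasl2 rose by a log2 fold change of 2.03 (approximate SE 0.35, 95% interval 1.26 to 2.80, adjusted p = 0.0175). From the pooled counts alone, the APP level was 4.09 times the WT level, with an exact 95% counting interval of 2.79 to 6.14. Such intervals cover counting error only, since the reads carry no molecular identifiers. The gene kept its call in the 10 other analyses of all 4 libraries, with adjusted p from 6.9e-06 to 0.0305, and lost it without WT-1 (adjusted p = 0.0982) or without WT-2 (0.159).

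Ifitm3 and Bst2 are membrane proteins, the first of which hinders the fusion of enveloped viruses in endosomes while the second, tetherin, holds budding virus on the cell surface. Ifitm3 (ENSMUSG00000025492, chr7:141009586-141010770, − strand) had 24 and 28 counts in WT-1 and WT-2, and 40 and 38 in APP-3 and APP-4. Its mean was 0.667 ± 0.172 CPM in WT and 1.3 ± 0.11 CPM in APP (SD, n = 2 each). The groups did not overlap, but the log2 fold change of 0.98 (95% interval 0.25 to 1.72) did not pass the cut-off (adjusted p = 0.249). Bst2 (ENSMUSG00000046718, chr8:71534255-71537456, − strand) had 29 and 23 counts in WT-1 and WT-2, and 48 and 38 in APP-3 and APP-4. Its mean was 0.654 ± 0.0075 CPM in WT and 1.44 ± 0.306 CPM in APP (SD, n = 2 each). Again both APP libraries were above both WT libraries. The log2 fold change was 1.13 (95% interval 0.42 to 1.84, adjusted p = 0.163), and only the exact test and the likelihood ratio test of edgeR, with adjusted p of 0.0493 and 0.0402, called it with all 4 libraries.

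Irf7, the transcription factor that amplifies interferon production, had the fewest counts in all of the 7 genes found by symbol. Irf7 (ENSMUSG00000025498, chr7:141262706-141266481, − strand) had 7 counts in WT-1, 11 in WT-2, 13 in APP-3 and 26 in APP-4. The levels were 0.159, 0.31, 0.449 and 0.839 CPM, so APP-4 was the highest and APP-3 lay only a little above WT-2. The replicates of each group lay within counting error of each other. The mean was 0.235 ± 0.107 CPM in WT and 0.644 ± 0.276 CPM in APP (SD, n = 2 each). On the log2 scale the difference was 1.5 (95% interval 0.31 to 2.70, adjusted p = 0.287). The Irf7 gene overlaps Phrf1 on the opposite strand, but the exons of the counted Irf7 transcript share 0 nt with those of Phrf1.

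Isg15 and Usp18 act as a pair, since Isg15 is a ubiquitin-like protein that is induced by interferon and attached to other proteins by conjugating enzymes, and Usp18 is the protease that removes it and also restrains the type I receptor. Usp18 (ENSMUSG00000030107, chr6:121245906-121270917, + strand) had 20 counts in WT-1, 10 in WT-2, 29 in APP-3 and 21 in APP-4. Its levels of 0.454 and 0.282 CPM in WT and 1 and 0.678 CPM in APP did not overlap. Its log2 fold change was 1.14 (95% interval 0.19 to 2.10, adjusted p = 0.324). Exons of Gm44148, on the opposite strand, share 124 nt with the counted Usp18 transcript, and 0 transcripts of Gm44148 were counted. Whether reads from there entered the Usp18 counts was not tested. Isg15 (ENSMUSG00000035692, chr4:156199424-156200818, − strand) had 21 counts in WT-1, 6 in WT-2, 3 in APP-3 and 8 in APP-4. Here the groups overlapped, with WT-1 at 0.477 CPM, WT-2 at 0.169, APP-3 at 0.104 and APP-4 at 0.258. The mean was 0.323 ± 0.218 CPM in WT and 0.181 ± 0.109 CPM in APP (SD, n = 2 each), and the 2 WT libraries differed from each other by more than counting error. The log2 fold change was -0.87 (95% interval -2.43 to 0.70, adjusted p = 0.724), and it was 0.11 without WT-1. With so few counts no difference in Isg15 was detected in either direction. The interval with all 4 libraries ends below 1.13, the median of the 7 genes found by symbol, but the estimate depends on WT-1.

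Ifi27l2a encodes a small hydrophobic protein strongly induced by type I interferon. Ifi27l2a (ENSMUSG00000079017, chr12:103442167-103443680, − strand) had 19 counts in WT-1, 4 in WT-2, 24 in APP-3 and 44 in APP-4. The levels were 0.432 and 0.113 CPM in WT and 0.829 and 1.42 CPM in APP. The groups did not overlap, but the replicates differed by more than counting error within both groups. The mean was 0.272 ± 0.226 CPM in WT and 1.12 ± 0.418 CPM in APP (SD, n = 2 each). The log2 fold change of 1.96 (95% interval 0.81 to 3.11) was close in size to that of Oasl2, with an adjusted p of 0.132. It passed with the exact test and the likelihood ratio test of edgeR (adjusted p = 0.0139 and 0.0124) and without APP-3 (0.000339).

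**Figure D3:**
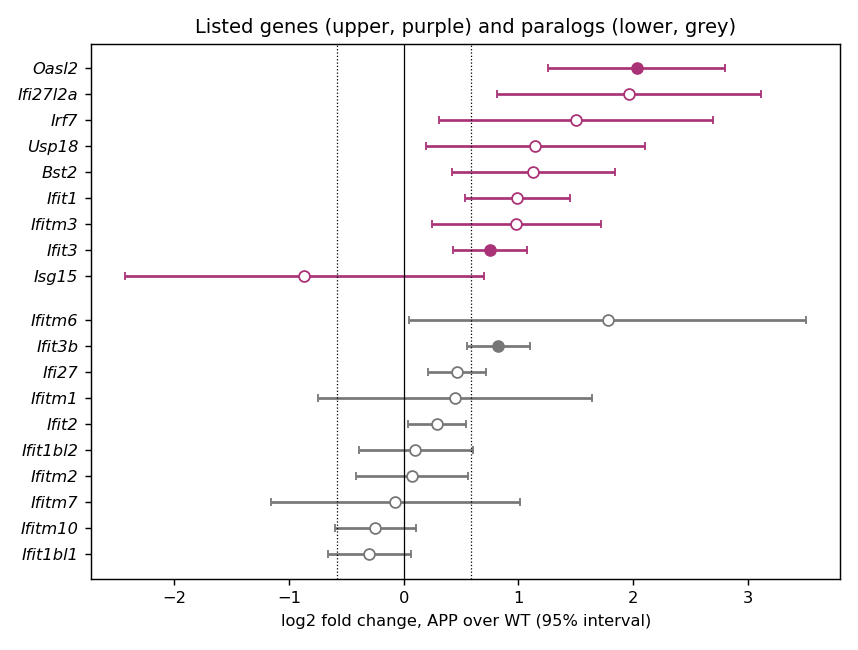
Log2 fold change, APP against WT, of the 9 listed genes (upper) and their 10 counted relatives (lower) with its 95% interval, where filled symbols passed both cut-offs and dotted lines mark a fold change of 1.5 in each direction. Oasl2 at 2.03 and Ifit3 at 0.75 are filled among the listed genes, of which Isg15 alone lies below 0 with an interval that crosses it, and Ifit3b at 0.82 is filled among the relatives.

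Per length of transcript, Ifit3 was the most abundant of the 9 genes in both groups. In CPM per kb of the counted transcript it averaged 2.37 in WT and 4 in APP, and its lowest library in each group was above every library of the other genes of that group. In WT it was followed by Ifitm3 at 0.984, Bst2 at 0.825, Ifit1 at 0.606, Ifi27l2a at 0.588, Isg15 at 0.427, Usp18 at 0.208, Oasl2 at 0.141 and Irf7 at 0.122 CPM per kb. The 2 libraries of Ifitm3 spanned those of Bst2, and those of Ifi27l2a spanned Ifit1 and Bst2 and overlapped Isg15 and Ifitm3, so these neighbours were not separated beyond their spread. Usp18 overlapped Oasl2 and Irf7 as well. In APP the order was Ifit3, Ifi27l2a at 2.43, Ifitm3 at 1.92, Bst2 at 1.82, Ifit1 at 1.2, Oasl2 at 0.59, Usp18 at 0.474, Irf7 at 0.336 and Isg15 at 0.239 CPM per kb. Ifi27l2a, Ifitm3 and Bst2 overlapped one another there, as did each later neighbour from Oasl2 to Isg15, while Ifit1 lay between and overlapped none. Each gene was counted on 1 transcript, although GENCODE lists 13 for Irf7, 9 for Oasl2, 4 for Usp18 and 2 for Bst2.

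Several of the genes have relatives of similar sequence, and alignment allowed up to 7 mismatches. How many reads were shared between relatives was not measured. Ifit3 and Ifit3b are 97.8% identical over 1700 nt, which covers 97.4% of the Ifit3 transcript, and how the reads were divided between them is uncertain. Ifit3b, deposited as I830012O16Rik, had 247 and 216 counts in WT-1 and WT-2, and 290 and 329 in APP-3 and APP-4. Both APP libraries lay above both WT libraries once scaled, and Ifit3b rose by a log2 fold change of 0.82 (approximate SE 0.12, adjusted p = 0.0104). With the counts of both genes summed, the log2 fold change was 0.79 (adjusted p = 0.0045). Ifit1 and Ifit1bl1 are 76% identical over 1371 nt, and Ifit1bl1 had 185 and 151 counts in WT against 103 and 103 in APP (log2 fold change -0.30, adjusted p = 0.557). Ifitm2 matches Ifitm3 at 82.9% over 363 nt, and its log2 fold change was 0.071 (adjusted p = 0.952). Of 14 listed relatives of the members, 10 were counted and 1 passed the cut-offs, as did 0.999% of all features. The median log2 fold change of the 10 was 0.20. Ifit1bl2 had 161 and 88 counts in WT and 87 and 113 in APP (log2 fold change 0.10, adjusted p = 0.927). Ifit2, a family member with more reads, had 561 and 408 counts in WT and 459 and 429 in APP (log2 fold change 0.29, adjusted p = 0.343). Isg15 also shares 95.2% identity over 482 nt with AC151275.1, for which 0 transcripts were counted.

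A wider list of 87 other interferon-stimulated genes was counted for 76 genes, 66 of which had a positive and 10 a negative log2 fold change. Of the 76, 8 passed both cut-offs and all 8 were higher in APP, 9 passed the FDR alone, and 34 had an unadjusted p under 0.05 in that direction and 1 in the other. The median log2 fold change was 0.48, and 51 of the 76 genes had groups that did not overlap and were higher in APP. Over all features these shares were 0.921% called higher, 7.03% by unadjusted p and 21.1% not overlapping. The count of 8 was 0 without WT-1, where 25 genes had an unadjusted p under 0.05 and were higher, 2 without WT-2, 21 without APP-3 and 14 without APP-4.

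Ifi44, an interferon-induced cytoplasmic protein, had 16 and 11 counts in WT-1 and WT-2, and 54 and 130 in APP-3 and APP-4. It rose by a log2 fold change of 3.16 (approximate SE 0.45, adjusted p = 0.00723), and APP-4 lay far above APP-3. Lgals3bp, a secreted galectin-binding glycoprotein, had 120 and 89 counts in WT against 184 and 326 in APP (log2 fold change 1.69, adjusted p = 0.0052), and again APP-4 was the highest library. The guanylate-binding protein gene Gbp3 rose by 1.26 (adjusted p = 0.017) and the immunity-related GTPase gene Irgm1 by 0.68 (adjusted p = 0.0282). Trim30a, a tripartite motif gene, rose by 1.11 (adjusted p = 0.0417), and Rnf213, a large ubiquitin ligase gene, by 0.64 (adjusted p = 0.0104). Ifit3b, described above, and Cxcl10 complete the 8 genes. Cxcl10, a chemokine that draws T cells, had 4 and 0 counts in WT-1 and WT-2, and 18 and 20 in APP-3 and APP-4 (adjusted p = 0.0476). With so few WT reads its fitted log2 fold change of 3.57 depends on the prior count. Oas2 was at or under 3 counts in both WT libraries, with 0 and 3, and had 13 and 15 in APP (adjusted p = 0.0945). The classical interferon-stimulated genes Mx1 and Rsad2 had log2 fold changes of 0.82 (adjusted p = 0.667) and 0.41 (adjusted p = 0.685).

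**Figure D4:**
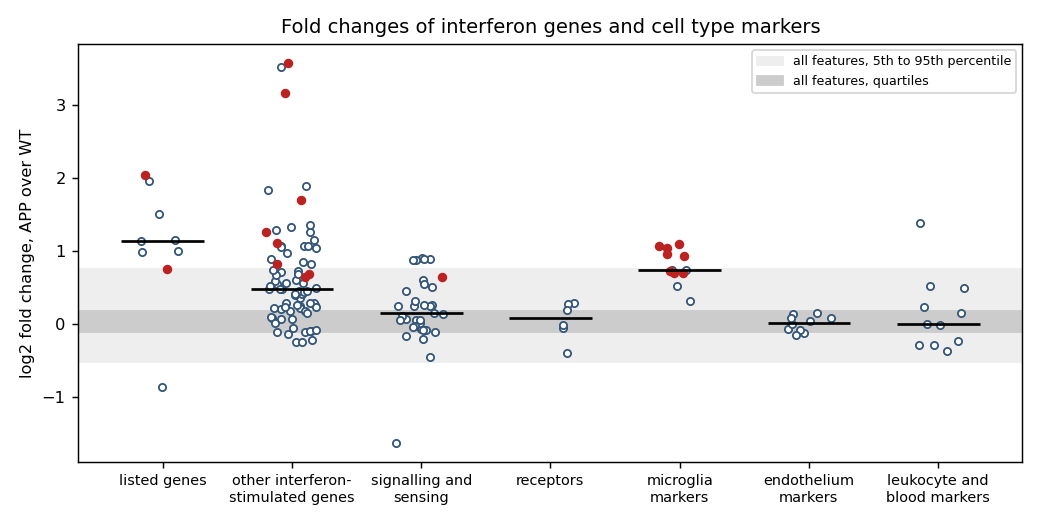
Log2 fold change, APP against WT, of every counted gene of 7 of the lists, where points are genes, red points passed both cut-offs, black lines are list medians, and the shaded bands are the quartiles and the 5th to 95th percentiles of all features. The listed interferon-stimulated genes have a median of 1.13, the other interferon-stimulated genes 0.48 and the microglial markers 0.74, while the endothelial list sits at 0.015.

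Upstream of these genes, 0 interferon genes were among the counted transcripts, in a table that lists transcripts with 10 or more counts over the 4 libraries. Of 27 listed ligands and receptors, the 6 counted were all receptor genes. None passed the cut-offs with edgeR's quasi-likelihood, exact or likelihood ratio test or with DESeq2, which makes 0 of 6. Of all features 0.999% passed them with the quasi-likelihood test. Only 1 receptor gene, Ifnar2, had an unadjusted p under 0.05, where 7.03% of all features had one and were higher. With 6 genes, neither count can be told from these shares. Ifnar1 and Ifnar2, the type I receptor, had log2 fold changes of -0.059 (adjusted p = 0.864) and 0.28 (adjusted p = 0.431). Ifngr1 and Ifngr2, the interferon gamma receptor, stood at 0.27 and -0.022, and Il10rb and Ifnlr1, the type III receptor, at 0.19 and -0.40. The median of the 6 was 0.084.

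Among signalling and nucleic-acid sensing genes 34 of 37 were counted, with a median log2 fold change of 0.14. Of these, only Tlr3, the endosomal sensor of double-stranded RNA, passed both cut-offs, as did 0.999% of all features. It had 332 and 223 counts in WT-1 and WT-2, and 305 and 343 in APP-3 and APP-4, and it rose by a log2 fold change of 0.64 (approximate SE 0.13, adjusted p = 0.0444). Irf9 and Stat2, parts of the complex that binds the ISRE, had log2 fold changes of 0.54 (adjusted p = 0.106) and 0.15 (adjusted p = 0.655). Irf8, a myeloid transcription factor, and Tlr7, a sensor of single-stranded RNA, had 0.90 (adjusted p = 0.0531) and 0.87 (adjusted p = 0.0659). The kinase gene Jak1 had -0.17 (adjusted p = 0.361).

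Markers of microglia, astrocytes and oligodendrocytes moved in the same direction as the interferon-stimulated genes. All 12 microglial markers had a positive log2 fold change with a median of 0.74. Both cut-offs were passed by 8 of them, among them the complement genes C1qa and C1qc, Olfml3, Aif1, Cx3cr1, Csf1r and Siglech, and P2ry12 passed the FDR. Of all features 0.921% passed both and were higher, the share to set beside each of these lists. In 10 of the 12 the groups did not overlap and APP was higher, as in 21.1% of all features. The count of 8 was 2 without WT-1, 3 without WT-2, 10 without APP-3 and 8 without APP-4. Their summed level was 273 CPM in WT-1, 277 in WT-2, 446 in APP-3 and 520 in APP-4. None of the 12 was at 0 in any library. Set against that sum, the 7 genes found by symbol came to 3.04% in WT-1, 2.8% in WT-2, 3.49% in APP-3 and 3.37% in APP-4. Both APP shares were above both WT shares, by far less than the 7 genes themselves. Ifit3, with the smallest log2 fold change of the 7 (0.75), gave 4.34 of their 8.29 CPM in WT-1. The shares therefore lean on Ifit3, and gene by gene the medians were 1.13 for the 7 and 0.74 for the microglial markers. All 7 astrocyte and all 7 oligodendrocyte markers also had a positive log2 fold change, as did 50.8% of all features. The medians of these 2 lists were 0.23 and 0.54. Of the astrocyte markers 2 of 7 passed the cut-offs, Gfap at 2.82 (adjusted p = 1.71e-07) and Aqp4 at 0.73 (adjusted p = 0.000926) on the log2 scale. Of the oligodendrocyte markers 1 of 7 passed both, Mag with 0.72 (adjusted p = 0.00708), and Cnp passed the FDR with 0.54 (adjusted p = 0.0178). The part of these cell types in the values of the interferon-stimulated genes was not tested.

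Blood and infiltrating leukocyte markers were counted for 11 of 18 genes, and Cd3e, Cd3g, Nkg7 and Gzma were not among the counted transcripts. Their median log2 fold change was 0.001. Their sum was 194 CPM in WT-1, 94.4 in WT-2, 141 in APP-3 and 98.6 in APP-4, so the groups overlapped. Most of this sum came from haemoglobin genes, with Hbb-bs at 131 CPM and Hba-a1 at 55.3 CPM in WT-1. The sum therefore says little about the leukocyte markers. Of the 11 genes, 2 had groups that did not overlap and were higher in APP, and 2 had such groups and were lower. Among all 22919 features, 4841 had such groups and were higher, and 4583 were lower. With 11 genes, neither count of 2 can be told from these shares. The endothelial and pericyte list had a median of 0.015, the choroid plexus and meninges list -0.13 and the neuronal list -0.12. In these 4 lists 0 genes passed the cut-offs with the quasi-likelihood, exact or likelihood ratio test of edgeR or with DESeq2 when all 4 libraries were used. Since 0.999% of all features passed with the quasi-likelihood test, lists this short cannot be told from that share by a count of 0. Without APP-3, 1 leukocyte gene, Cd4, passed as higher and 2 blood genes, both for haemoglobin, as lower, and 1 gene of the choroid plexus and meninges, Clic6, passed as higher. Without APP-4, Cd4 passed as lower. With all libraries, at an unadjusted p under 0.05, 0 genes were higher in APP, 2 neuronal genes were lower and 1 gene of the choroid plexus and meninges was lower. Of all 22919 features, 1611 were higher and 980 lower at that p.

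The genes whose pattern over the 4 libraries was most like the mean of the members were sought among 16520 genes with a mean above 1 CPM. Closeness was the root mean square distance between mean-centred log2 CPM values. Ctsz, a lysosomal cathepsin, was nearest at 0.0338, with 18 and 16.2 CPM in WT and 40.1 and 44.7 CPM in APP. It was followed by H2-K1, a class I antigen-presenting molecule, at 0.0605, and by Ctsd, the lysosomal aspartic protease, at 0.0622. The deposited symbols of the last 2 also cover Gm7030 and Gm49369. With 4 libraries many genes that separate the groups lie close to this mean, and the distance is only a description.

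**Figure D5:**
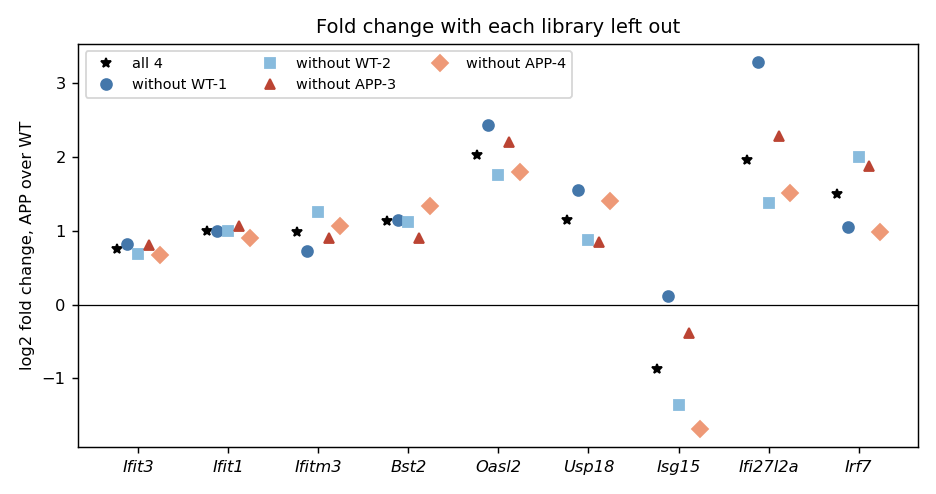
Log2 fold change, APP against WT, of the 9 listed genes in the fit of all 4 libraries and in fits that each omit a single library. Which genes passed both cut-offs in each fit is given in the text. Every gene but Isg15 stays above 0 in each fit, which follows from groups that do not overlap, and Isg15 ranges from -1.68 to 0.11.

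Leaving out a library moved which genes passed. It could not turn the direction of the 8 of the 9 genes whose groups did not overlap, so their unchanged direction adds no support. Without WT-1 or without WT-2, 0 of the 7 genes passed edgeR's quasi-likelihood test, while 5 and 7 of them had an unadjusted p under 0.05. Without APP-3, 5 passed, namely Ifit1, Ifit3, Oasl2, Irf7 and Ifi27l2a. Without APP-4, 3 passed, namely Ifit3, Oasl2 and Bst2. The number of all features that passed moved in the same way, from 229 with all libraries to 59 without WT-1, 87 without WT-2, 724 without APP-3 and 556 without APP-4. Ifi27l2a ranged from 1.38 to 3.28, Oasl2 from 1.75 to 2.43 and Irf7 from 0.98 to 2, while Ifit3 stayed between 0.67 and 0.82 and Ifit1 between 0.90 and 1.07.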

How the data were processed

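RNA from the cortex of 2 APP and 2 WT mice, freed of ribosomal RNA, was sequenced in strand-specific read pairs. The authors aligned reads longer than 35 nt with FANSe2 to Ensembl mouse RNA, allowing 7 mismatches, and deposited the read count of each of 37539 transcripts, unnormalized, with 10 or more counts over the 4 libraries. The Ensembl release and the use of strand in counting are not given in the sources used here. The submitters' processing notes list CASAVA 1.8, edgeR and the human build hg19, with no role given. The log2 CPM, log2 fold change, p-value and FDR columns deposited by the authors were not used, 4 of them columns of log2 CPM per library.

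Counts were summed per deposited symbol, ignoring case, and 8274 transcripts without a symbol stayed features of their own. A total of 256 symbols cover more than 1 GENCODE gene. Groups were compared with edgeR 4.0.16 (TMM, quasi-likelihood F test, no covariate) in R 4.3.3, with adjustment over 22919 features. The common dispersion was 0.00781. Standard errors were derived from the F statistic. Coordinates come from GENCODE M21 (GRCm38), sequences were compared with blastn 2.17.0, and promoters were credited to RefSeq. The test was checked on simulated counts that used a single dispersion and put changes only into well-counted features. That check does not cover genes with few counts or the scatter of the APP libraries.

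The alternatives were DESeq2 1.42.0, edgeR's exact, likelihood ratio and earlier quasi-likelihood tests, RLE size factors, library totals, other filters, gene sums by identifier, transcripts, other cut-offs and leaving out each library. Taking all 9 genes and summing Ifit3 with Ifit3b were added after seeing the data. Genes and lists were chosen with earlier results of these data known. All listed genes are named, along with interferon receptors, relatives of called genes, genes of each list past the FDR (10 a list at most), App and Prnp, and the 3 nearest in pattern. Some genes of the rule are not reported here. Irf8, Tlr7, Irf9, Stat2, Jak1, Oas2, Mx1, Rsad2, Ifitm2, Cd4, Clic6 and the haemoglobin genes were picked after their values were seen.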

Additional observations from a re-analysis of the deposited data

How the results depend on the processing

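No paired analysis was made, because the sources used here describe no pairing of the mice. The labels number the replicates of both groups alike, but the APP columns carry the numbers 3 and 4 and cannot be matched to those numbers. Of the 7 genes found by symbol, 2 passed both cut-offs. The number was 1 with DESeq2, with at least 10 counts in every library, with gene sums by identifier and with a fold change of at least 2, and 5 with the exact test and the likelihood ratio test. It ran from 0 to 5 when single libraries were left out, with 0 without WT-1 or WT-2. Of all features 229 passed, against 397 with the exact test, 443 with the likelihood ratio test, 131 at a fold change of at least 2, and 59 to 724 without single libraries. Of the other interferon-stimulated genes 8 passed, against 13 with the likelihood ratio test, 5 at a fold change of at least 2, and 0 to 21 without single libraries. Of the signalling and sensing genes 1 passed. That number was 2 with DESeq2, library totals or the FDR alone, 4 with the exact and likelihood ratio tests, 5 with transcripts, and 0 to 7 without single libraries. It was 0 with the earlier quasi-likelihood method, with at least 10 counts in every library and at a fold change of at least 2, where 9, 10 and 9 genes had an unadjusted p under 0.05 and were higher. The cause of these shifts was not tested.

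With all 4 libraries, 75 of the single-gene values kept their side of the cut-offs, 9 passed newly and 3, all of Ifit3, no longer passed. With a library left out, 27 kept it, 4 passed newly, 4 no longer passed and 1 reversed, Isg15 at 0.11 without WT-1, in a range of -1.68 to 0.11. DESeq2 gave no adjusted p for Isg15, and Irf7, Isg15 and Ifi27l2a had too few counts for the filter of 10 in every library. No scaling moved the median of all features by more than 0.007. Levels under 1 CPM rest on few counts a library, and 2 mice per group limit every comparison.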
